A study of Mus musculus with 4 samples.

Results

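Neurexins, neuroligins and leucine-rich repeat transmembrane proteins (LRRTMs) were followed in nuclei of the adult mouse dentate gyrus, from radial glia-like stem cells to mature granule cells and in the glia collected with them. The genes were chosen by name, and 9 were present in the count files: the neurexins Nrxn2 and Nrxn3, the neuroligins Nlgn1, Nlgn2 and Nlgn3, and the LRRTM genes Lrrtm1, Lrrtm2, Lrrtm3 and Lrrtm4. They are 9 of the 45706 features in those files. Their levels are given as UMIs (unique molecular identifiers, each marking 1 captured RNA molecule) per 1000000 UMIs of the same nuclei, abbreviated CPM.

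Nuclei came from male and female young adult (6 to 8 weeks old) C57Bl/6J-background mice with a tamoxifen-inducible Cre driver and the CAGfloxStop-Sun1/sfGFP reporter, given tamoxifen, in which cells that expressed the driver at that time, and their progeny, carry a green fluorescent nuclear envelope. Left dentate gyri were dissected at week 1, 2, 4 or 8 after labeling (cohorts w1, w2, w4 and w8), GFP-positive nuclei were sorted, and each cohort was 1 droplet library from 4 pooled dentate gyri, so that no test between weeks is possible. All 4 cohorts carried the same driver and reporter alleles and received tamoxifen, and cells outside the labeled lineage enter only as far as the driver and the sort let them. The study sorted nuclei into 13 clusters from their expression: astrocytes (Astro), radial glia-like cells (RGL), neural progenitor cells (NPC), neuroblasts (NB1, NB2), immature granule cells (GCimm1, GCimm2), young granule cells (GCyoung), mature granule cells (GCmat1, GCmat2), oligodendrocyte precursors (OPC), oligodendrocytes (Oligo) and a pericyte or leptomeningeal cluster (Peri). That clustering used variable genes of a normalized table that holds 7 of the members, without Nlgn1 and Lrrtm4, so a difference between clusters describes the clusters as they were drawn.

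The study kept 14367 nuclei of 17046 deposited barcodes, with 2867, 4243, 3831 and 3426 in the 4 cohorts by week. Median depth ran from 4369 UMIs per nucleus in w1 to 7704 in w8, and pairs of libraries shared between 1 and 6 barcodes. Cluster sizes ran from 45 Oligo nuclei to 3356 GCmat1 nuclei, with 67 Astro, 60 Peri, 131 OPC, 209 GCmat2 and 211 NPC nuclei among the small ones. Of the marker lists, all 5 astrocyte, NPC, OPC and oligodendrocyte markers and all 5 leptomeningeal and pericyte markers peaked in the cluster they are named for, against 3 of 5 for RGL. Fewer cells of a type and less RNA per cell cannot be told apart in summed counts, and a nuclear level is not a level of protein or of RNA at the synapse.

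Neurexins sit on the presynaptic membrane and bind across the cleft to several families of postsynaptic partners. Neuroligins are one of these families: Nlgn1 is best known from excitatory synapses, Nlgn2 from inhibitory ones, and Nlgn3 occurs at both. LRRTMs are a second family, found at excitatory synapses; Lrrtm1 and Lrrtm2 bind neurexins through the protein, whereas Lrrtm4 is known for binding heparan sulfate chains carried by glypicans and neurexins, and is a prominent synaptic protein of dentate granule cells. New granule cells receive their first inputs from inhibitory neurons and only later from the excitatory axons of the entorhinal cortex, and OPCs also receive synaptic input.

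The genes differ greatly in length, which matters because the counts include introns. In the mouse genome build GRCm38, Nrxn2 is at chr19:6418731-6544169 on the plus strand and Nrxn3 at chr12:88722876-90334935 on the plus strand, a gene of 1612 kb. Nlgn1 spans 906 kb at chr3:25426215-26332460 on the minus strand. Nlgn2 is far shorter, at chr11:69823122-69837784 on the minus strand, and Nlgn3 lies at chrX:101299168-101325963 on the plus strand. Lrrtm1 lies at chr6:77242689-77257791 on the plus strand and Lrrtm4 at chr6:80018877-80810143 on the same strand of the same chromosome, where it spans 791 kb. Lrrtm2 is at chr18:35209003-35215024 and Lrrtm3 at chr10:63928472-64090277, both on the minus strand. Levels of different members are ranked only after division by gene length in kb, while genes nested in one another are also given side by side in CPM, since a read counted without its strand could belong to either.

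The 9 genes contributed very unequal numbers of molecules. Lrrtm4 gave 690324 UMIs, 7508 CPM over all nuclei, and Nlgn1 gave 273843. Nrxn3 gave 45698 UMIs, Lrrtm3 17518, Nrxn2 11986 and Lrrtm1 4619, while Nlgn2, Nlgn3 and Lrrtm2 gave only 3211, 1604 and 1058. Per kb of gene, the highest cluster level was that of Lrrtm4 in GCyoung, at 14.7 CPM per kb. Of the peaks of the other members, each taken in its highest cluster, Nlgn1 in OPC stood at 6.34, Lrrtm2 in Oligo stood at 6.05 from 8 UMIs, and Lrrtm3 in OPC at 5.28, all in CPM per kb.

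**Figure D1:**
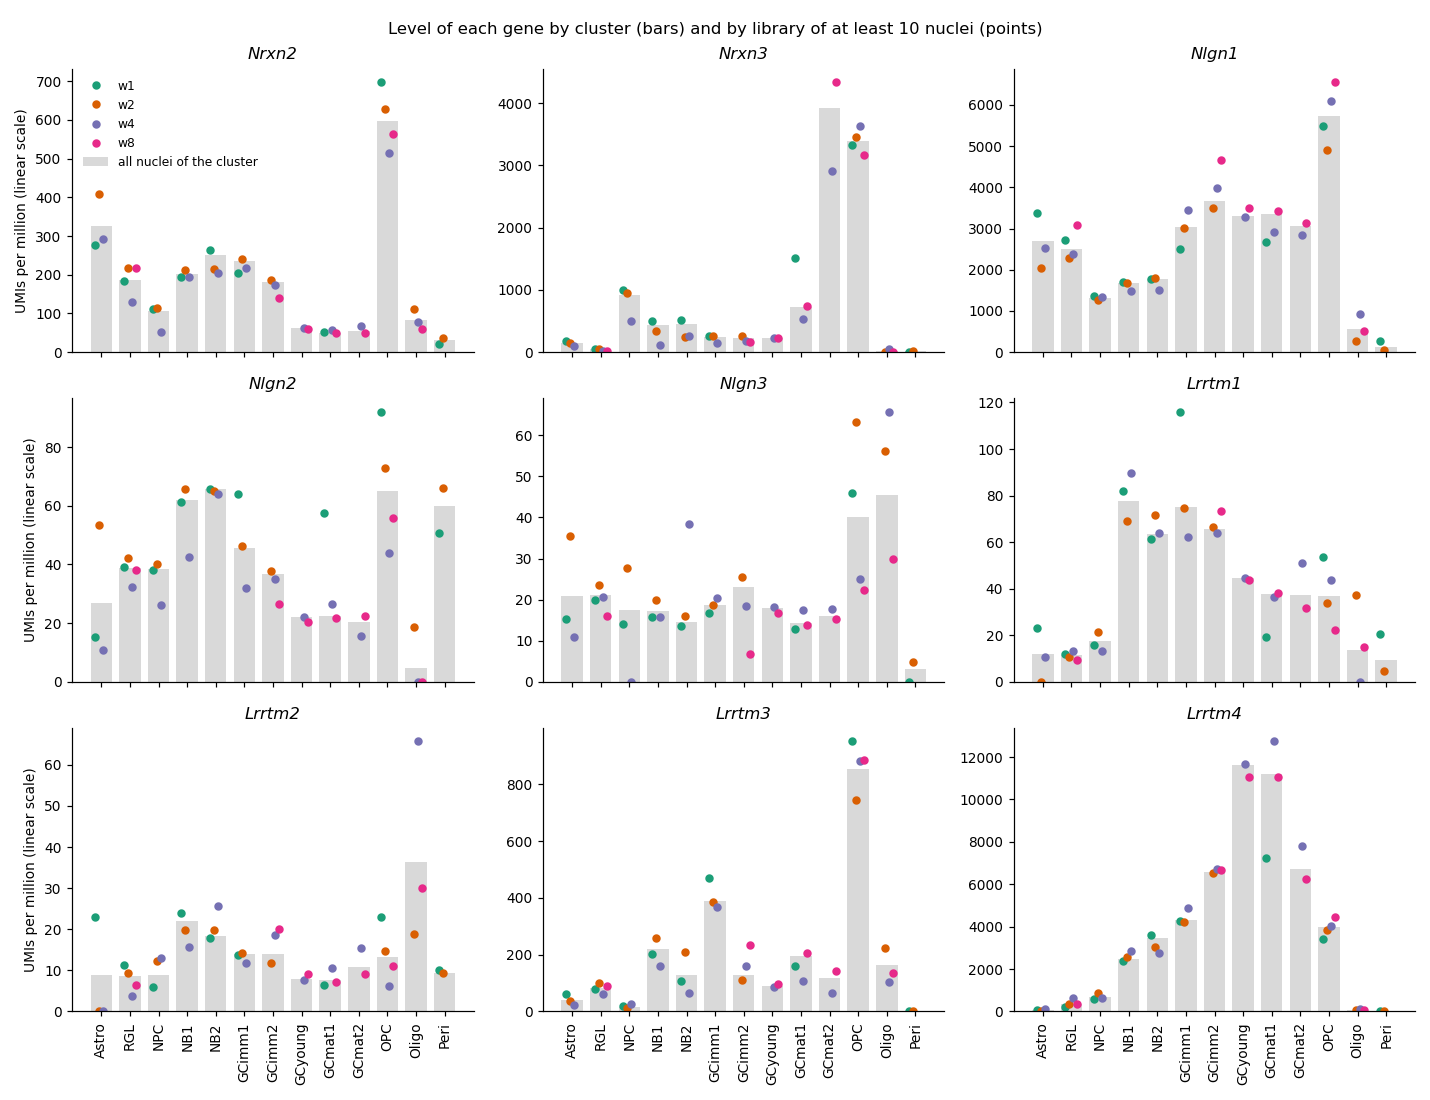
Level of each of the 9 genes (CPM, linear axis from 0) in the 13 clusters, with bars for all nuclei of the cluster and 1 point per library of at least 10 nuclei. Lrrtm4 climbs from RGL to GCyoung, within the neuronal path Nrxn2 is lowest from GCyoung on, and OPC holds the highest pooled level of Nrxn2, Nlgn1 and Lrrtm3.

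Differences were tested between neighboring clusters on UMI sums of each library and cluster, and a gene was called changed where it differed at least 1.5-fold and its p, adjusted by Benjamini-Hochberg over all genes tested, was 0.05 or less. From RGL to NPC 4 of the 9 members changed, when 29.5% of all genes tested did. From NPC to NB1 7 of 9 changed, 6 of them upward, against 29.3% of all genes in either direction. Of the 13513 genes tested, 1986 rose in that step. From NB1 to NB2 none was called, against 2.94% of all genes, by the edgeR quasi-likelihood test or by DESeq2, and 1 member had an unadjusted p below 0.05. From NB1 to GCimm1 3 of 9 rose, where 12.5% of all genes changed in either direction and 1049 of 13513 rose. These counts are out of 9 genes, and no test of them as a group was made.

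From GCimm1 to GCimm2 1 member fell (all genes 9.43%), and from GCimm2 to GCyoung 1 rose and 1 fell (18.9%). From GCyoung to GCmat1 1 rose (3.85%), and from GCmat1 to GCmat2 1 rose (7.30%). These percentages count changes of all genes in either direction. Of the 13513 genes, 393 fell from GCimm1 to GCimm2, 216 rose from GCyoung to GCmat1 and 407 rose from GCmat1 to GCmat2. Outside the neuronal path, 3 members differed between Astro and RGL (9.58%), 5 between GCmat1 and Astro (35.2%), 6 between GCmat1 and OPC (34.9%) and 6 between Astro and OPC (20.6%). The median log2 change of the 9 members was 1.19 from NPC to NB1 and 1.47 from Astro to OPC, where the medians of all genes were 0.06 and 0.07. In 4 comparisons the median of all genes itself lay more than 0.1 from 0: it was 0.27 from Astro to RGL, -0.25 from GCmat1 to Astro, -0.17 from GCmat1 to OPC and -0.14 from GCmat1 to GCmat2, and changes there are to be read relative to it.

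**Figure D2:**
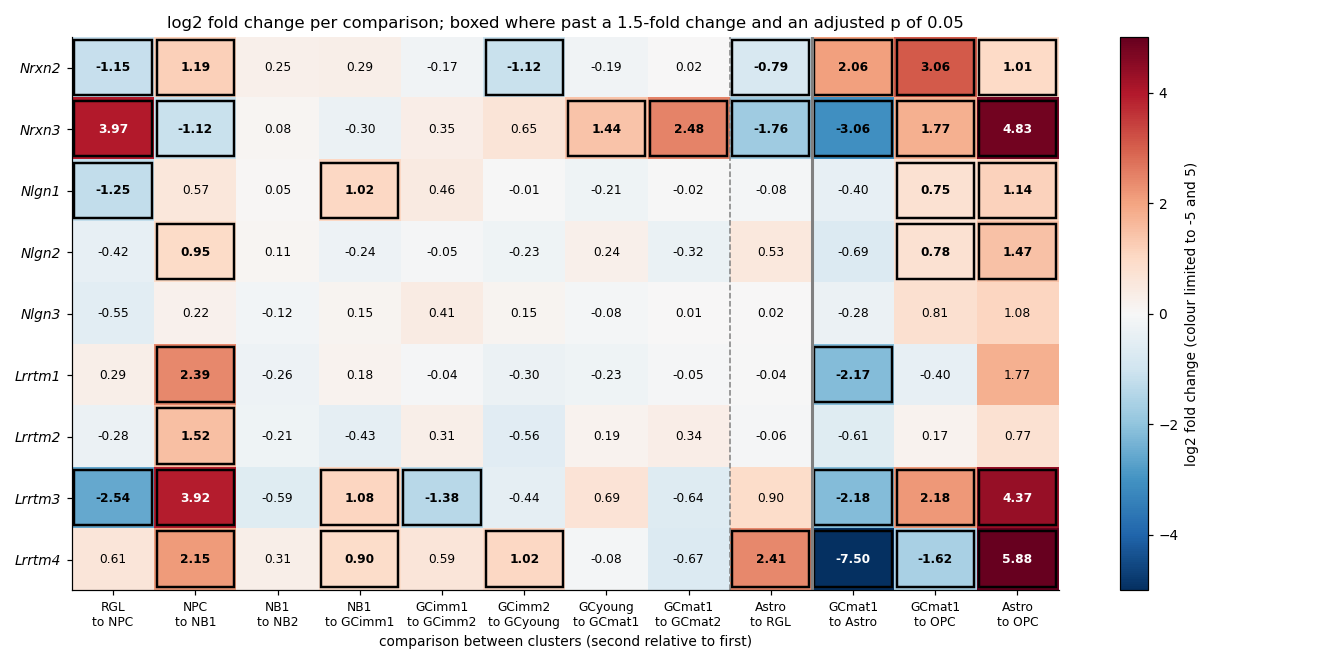
Log2 change of each member (rows) in each comparison (columns), second cluster relative to the first, with called changes boxed. The NPC to NB1 column holds 7 called members, the NB1 to NB2 column none, and Nlgn3 is called in no comparison by the edgeR test shown.

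Nrxn2, the shorter of the neurexin genes here, had its highest pooled levels in OPC (597 CPM) and Astro (325 CPM), and along the neuronal path it dipped in NPC and dropped at GCyoung. In RGL it stood at 185, 218, 130 and 217 CPM in w1, w2, w4 and w8, and in NPC at 112, 114 and 52.4 CPM in w1, w2 and w4, below RGL in each of these 3 libraries. The fall was 1.15 on the log2 scale (-1.15 ± 0.22, SE, adjusted p = 3.3e-05). In NB1 it was back at 195, 212 and 195 CPM, a rise of 1.19 ± 0.22 (SE, log2, adjusted p = 2.0e-05), and no value of NB1 overlapped with NPC.

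No change was called through NB2 (263, 214 and 205 CPM), GCimm1 (205, 241 and 219 CPM) and GCimm2, where w2, w4 and w8 gave 186, 173 and 140 CPM. GCyoung was lower in each library, with 62.0 CPM in w4 and 60.0 in w8, and the fall from GCimm2 was -1.12 ± 0.21 (SE, log2, adjusted p = 2.6e-05). From there it hardly moved: GCmat1 gave 51.2, 57.7 and 48.5 CPM and GCmat2 gave 68.5 and 48.7. The share of nuclei with at least 1 UMI went the same way, from 67.1% in GCimm2 to 37.2% in GCyoung, and from 28.8% to 11.6% when every nucleus was thinned to 2000 UMIs. In Peri it was 13.3%, or 8.33% after thinning. The annotated antisense gene Gm14964 lies inside Nrxn2 and gave 2162 UMIs in all, and the study names no strand setting but counted UMIs with default parameters, which in STARsolo keep the strands apart.

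Nrxn3, the longest member, had 3 high points: NPC, GCmat2 and OPC. In RGL it was near its lowest, at 50.4, 53.1, 26.5 and 15.9 CPM in w1, w2, w4 and w8, and in NPC it stood at 994, 949 and 498 CPM in w1, w2 and w4. The change was 3.97 ± 0.24 (SE, log2, adjusted p = 4.0e-19). It fell from NPC to NB1, where the libraries gave 502, 348 and 114 CPM (-1.12 ± 0.22, SE, log2, adjusted p = 5.9e-05). NB1 thus differed more than 4-fold between w1 and w4.

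The NPC and NB1 levels came from a handful of nuclei. In NPC 12 of 211 nuclei had 10 or more Nrxn3 UMIs and held 96.0% of its UMIs in the cluster, while 13.3% of nuclei had any, against 4.44% in Oligo at median depths of 4278 and 4801 UMIs (11.7% and 2.22% after thinning to 2000 UMIs). In NB1 31 of 2578 nuclei held 82.2%. In GCmat2, by contrast, 165 of 209 nuclei reached 10 UMIs. A list of Dlx genes was added after these values were seen. It held Dlx1, Dlx2, Dlx5, Dlx6, Dlx1as and Dlx6os1, transcription factor genes of the inhibitory neuron lineage and their antisense transcripts. At least 2 of their UMIs were found in 19 NPC nuclei and 23 NB1 nuclei. How many of those are among the 12 and 31 nuclei with 10 or more Nrxn3 UMIs was not counted. The 19 were 13 of w1, 5 of w2 and 1 of w4, and the 23 were 16 of w1 and 7 of w2.

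Those 19 NPC nuclei held 86.9% of the Nrxn3 UMIs of NPC, at 8017 CPM, and the 23 NB1 nuclei held 78.4% of those of NB1, at 31130 CPM. Without them NPC stood at 134 CPM (157, 122 and 69.8 in w1, w2 and w4) and NB1 at 93.8 CPM (83.7, 107 and 114). Of 7 interneuron markers, the summed level was 1429 CPM in the Dlx nuclei of NB1 against 43.9 in the other NB1 nuclei. Most of it was Gad1 (612 CPM) and Gad2 (757 CPM), and Pvalb, Vip and Lhx6 were at 0. In NPC it was 120 against 13.4 CPM, with 8 UMIs of Gad2, and Slc32a1, Vip and Lhx6 at 0. The 2 Dlx nuclei of NB2 had no UMI of the 7. The 5 immature neuron markers summed to 2637 CPM in the Dlx nuclei of NB1 against 2259 in the rest of NB1. The 5 NPC markers summed to 1457 CPM in the Dlx nuclei of NPC against 1261 in the rest, and their median depth was 4710 against 4214 UMIs. What these nuclei are was not tested.

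Leaving out the nuclei with at least 2 Dlx UMIs changed the calls of Nrxn3. Those nuclei were marked after the values were seen and held most Nrxn3 UMIs of NPC and NB1. Lower levels of both clusters without them were thus set in advance, and the adjusted p-values given here describe the fits only. The rise from RGL to NPC shrank to 1.17 (log2, adjusted p = 0.0012), and the fall from NPC to NB1 was no longer called (-0.05, adjusted p = 0.92). From NB1 to NB2 a rise of 1.85 was now called (adjusted p = 1.4e-07), and from NB1 to GCimm1 a rise of 1.35 (adjusted p = 5.1e-06), where the difference with all nuclei was -0.30 (adjusted p = 0.46). The level in NB2 was 460 CPM with them and 461 without, as only 2 NB2 nuclei had at least 2 Dlx UMIs. Along the pseudo-time that the study computed, the peak of 9023 CPM in the window from 6 to 8, over 101 nuclei of which 21 had at least 2 Dlx UMIs, went to 144 CPM without those nuclei.

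**Figure D3:**
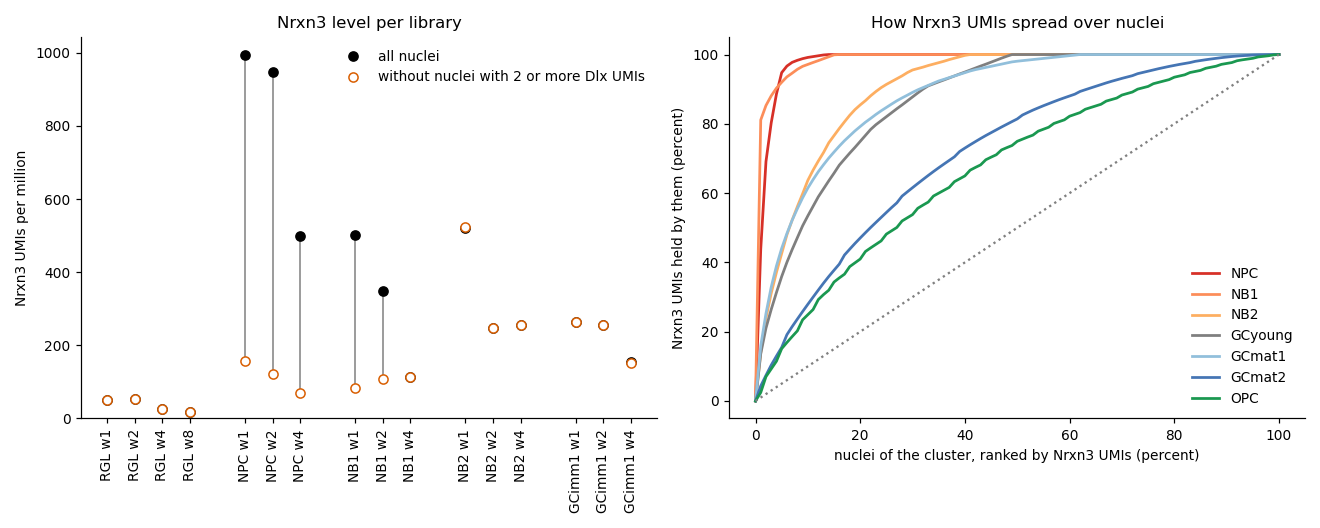
Left, Nrxn3 level (CPM) per library from RGL to GCimm1 with all nuclei (filled points) and without nuclei that carry 2 or more Dlx UMIs (open points). Right, cumulative share of the Nrxn3 UMIs of a cluster (percent) against the share of its nuclei (percent), ranked from the highest. The top 5% of NPC nuclei hold 94.8% of the UMIs, against 44.1% in GCmat1 and 15.5% in GCmat2, and the w1, w2 and w4 points of NPC fall from 994, 949 and 498 CPM to 157, 122 and 69.8 CPM without the Dlx nuclei.

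In granule cells the called rises of Nrxn3 were from GCyoung to GCmat1 and on to GCmat2. GCimm1 gave 264, 255 and 154 CPM in w1, w2 and w4, GCimm2 gave 263, 181 and 167 CPM in w2, w4 and w8, and GCyoung 220 and 235 CPM in w4 and w8. GCyoung was above GCimm2 in both of its libraries, a difference that missed the threshold (0.65, log2, adjusted p = 0.054) and was called with no filter (adjusted p = 0.030), with sums of at least 20 nuclei (adjusted p = 0.024) and without w1 (adjusted p = 0.012). GCmat1 stood at 526 CPM in w4 and 736 in w8, and at 1505 CPM in the 17 GCmat1 nuclei of w1. The rise from GCyoung to GCmat1 was 1.44 ± 0.24 (SE, log2, adjusted p = 3.4e-05). GCmat2 was higher again, with 2904 CPM in w4 and 4336 in w8, a rise of 2.48 ± 0.23 over GCmat1 (SE, log2, adjusted p = 6.1e-12).

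GCmat1 nuclei were themselves uneven. Of 3356, 562 (16.7%) had 10 or more Nrxn3 UMIs and held 74.7% of the gene's UMIs in the cluster, and 265 nuclei had 8 to 12, so no gap parts the groups. In w4 and w8 the nuclei with 10 or more Nrxn3 UMIs also had higher levels of each of the 4 activity markers (Sorcs3, Acvr1c, Kcnip3 and Bdnf), genes that the study links to granule cell activity. The study names Nrxn3 itself beside them among the genes of GCmat2, from these samples, so the list is not independent of it. In w4 Sorcs3, a sorting receptor gene, stood at 142 CPM in the 39 nuclei with 10 or more Nrxn3 UMIs and at 5.76 CPM in the other 364. In w8 it stood at 102 CPM in 509 nuclei and 9.65 CPM in 2418. The nuclei with more Nrxn3 had median depths of 7762 UMIs in w4 and 8979 in w8, against 8674 and 7853 in the others. Bdnf, a neurotrophin gene, was at 229 against 82.2 CPM in w4 and at 116 against 58.7 CPM in w8. Acvr1c stood at 162 against 25.5 CPM in w4 and 86.2 against 34.6 CPM in w8, and Kcnip3, which encodes a calcium-binding protein, at 255 against 33.4 CPM and 167 against 83.7 CPM. The order was the same for all 4 when nuclei were thinned to 2000 UMIs and split at 5 Nrxn3 UMIs, where Sorcs3 stood at 109 against 4.04 CPM in w4 (7 and 3 UMIs) and 143 against 13.6 CPM in w8. The split was drawn from the data, so these values carry no test.

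Nlgn1, the longest of the neuroligin genes here, dipped in progenitors and neuroblasts. RGL gave 2731, 2285, 2379 and 3089 CPM in w1, w2, w4 and w8, and NPC 1355, 1266 and 1350 CPM in w1, w2 and w4, with no overlap. The fall was -1.25 ± 0.23 (SE, log2, adjusted p = 1.8e-05). NB1 (1703, 1669 and 1483 CPM) was above NPC in each library, by a difference that missed the threshold (0.57 ± 0.24, SE, log2, adjusted p = 0.061). It was called with no filter on low counts (0.69, adjusted p = 0.0043), with sums of at least 20 nuclei (0.59, adjusted p = 0.0067) and without w8 (0.62, adjusted p = 0.033). NB2 gave 1787, 1797 and 1499 CPM.

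Nlgn1 then rose to 2504, 3023 and 3446 CPM in GCimm1 of w1, w2 and w4. That change was 1.02 ± 0.23 (SE, log2, adjusted p = 7.6e-04) and was not called without the w4 library. GCimm2 gave 3493, 3995 and 4663 CPM in w2, w4 and w8, and GCyoung, GCmat1 and GCmat2 all lay between 2677 and 3488 CPM in their libraries. At least 98.9% of nuclei in each granule cell cluster had a UMI of Nlgn1 (96.8% after thinning to 2000 UMIs), against 82.0% in NPC and 90.0% in NB1 (74.8% and 82.6% after thinning) and 15.0% in Peri (11.7% after thinning). Unlike Nrxn3, its UMIs were spread over the nuclei: the top 5% of GCmat1 nuclei held 13.9% of them.

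Nlgn2, the neuroligin of inhibitory synapses, had similar pooled levels in NB2, OPC and NB1, and among the neuronal clusters its highest pooled levels were in the neuroblasts. NPC gave 38.1, 40.0 and 26.2 CPM in w1, w2 and w4 and NB1 61.3, 65.6 and 42.6 CPM, a rise of 0.95 ± 0.26 (SE, log2, adjusted p = 0.0035) in all 3 libraries that was not called without w1, without w2 or after thinning to 2000 UMIs. NB2 stood at 65.8, 65.1 and 64.1 CPM. From there the pooled level stepped down through GCimm1 (45.5 CPM), GCimm2 (36.8) and GCyoung (22.1), and no single step was called. In the order of its 13 pooled levels all 12 pairs of neighbors overlapped in their libraries, so the order itself is not resolved.

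Nlgn3 showed no called change in any of the 12 comparisons by the edgeR test. From GCmat1 to OPC it was 0.81 higher (log2, adjusted p = 0.064), and this difference was called by DESeq2 (1.06, adjusted p = 0.010), with the size factors of DESeq2 in edgeR (adjusted p = 0.013) and without the library term (adjusted p = 0.022). Its pooled level stayed between 14.2 CPM in GCmat1 and 23.0 CPM in GCimm2 along the whole path from RGL to GCmat2. OPC (40.0 CPM, 27 UMIs) and Oligo (45.5 CPM, 10 UMIs) were higher, and 11 of 12 pairs of neighbors in its order overlapped. With 1604 UMIs in all nuclei, the depth limits what could be seen, and part of the gene overlaps Gm21986 on the same strand, which gave 45 UMIs.

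Lrrtm4 rose at 3 called steps between NPC and GCyoung. The RefSeq table for GRCm38.p6 holds 300-base windows, from 250 bases before to 50 after an annotated start, for 6 of the 9 members. The first Lrrtm4 window, chr6:80018627-80018926 on the plus strand, is shown because Lrrtm4 is the member whose level rises through the neuronal path up to GCyoung, and because it holds 2 copies of CAGCTG, the sequence (its own reverse complement, so the same on both strands) bound by many basic helix-loop-helix factors, given in capitals.
Lrrtm4: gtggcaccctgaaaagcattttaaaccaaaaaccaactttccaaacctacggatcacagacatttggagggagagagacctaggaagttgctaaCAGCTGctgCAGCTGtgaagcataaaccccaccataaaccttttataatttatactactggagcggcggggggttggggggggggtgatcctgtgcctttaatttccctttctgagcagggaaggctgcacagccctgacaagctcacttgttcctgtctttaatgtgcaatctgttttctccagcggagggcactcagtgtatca
Among the 32851 windows of all genes, 16.3% held CAGCTG and 1.90% held it 2 or more times. Among the 10 member windows 3 held it, both of Lrrtm4 and the 1 of Nlgn2. A match describes the letters only.

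In RGL Lrrtm4 stood at 210, 361, 615 and 363 CPM in w1, w2, w4 and w8, and in NPC at 581, 850 and 629 CPM in w1, w2 and w4, a difference that the edgeR test did not call (0.61, log2, adjusted p = 0.099). It was called by DESeq2 (adjusted p = 0.035), with the size factors of DESeq2 in edgeR (adjusted p = 0.021) and without w4 (adjusted p = 0.0070). It rose to 2358, 2569 and 2863 CPM in NB1, a change of 2.15 ± 0.30 (SE, log2, adjusted p = 4.3e-08). NB2 gave 3609, 3022 and 2780 CPM. The values of NPC and NB1 did not overlap, and the share of nuclei with a UMI went from 52.1% to 88.8%, or from 46.1% to 84.2% after thinning to 2000 UMIs. In Peri, at a median depth of 5108 UMIs against 4058 in NB1, 6 of 60 nuclei had a UMI of Lrrtm4, a cluster where the gene had 8 UMIs in all.

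The climb went on in granule cells. GCimm1 gave 4273, 4217 and 4877 CPM in w1, w2 and w4, above NB1 in each library (0.90 ± 0.28, SE, log2, adjusted p = 0.017). GCimm2 gave 6533, 6712 and 6662 CPM in w2, w4 and w8, a step that was called in 4 of the alternatives only (0.63 to 0.70, log2). GCyoung gave 11670 and 11036 CPM in w4 and w8. The last step was 1.02 ± 0.31 (SE, log2, adjusted p = 0.012), and it was not called without w4 or without w8, the only libraries with at least 10 nuclei in both clusters. The call from NB1 to GCimm1 was lost without w2 or without w4.

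No further rise was called in mature nuclei. GCmat1 gave 12738 CPM in w4 and 11037 in w8, and 7249 CPM in the 17 nuclei of w1. GCmat2 was lower in both its libraries, with 7791 and 6249 CPM, a difference from GCmat1 that was called only in 3 of the alternatives: no filter (-0.72), sums of at least 20 nuclei (-0.85) and without w1 (-0.90). Nearly every granule cell nucleus carried the transcript: 99.1% in GCimm1 and all of them in GCyoung, GCmat1 and GCmat2, also after thinning to 2000 UMIs. Along pseudo-time it went from 364 CPM in the window from 0 to 2 to 12388 CPM in the window from 26 to 28, and stood at 11215 CPM in the last.

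**Figure D4:**
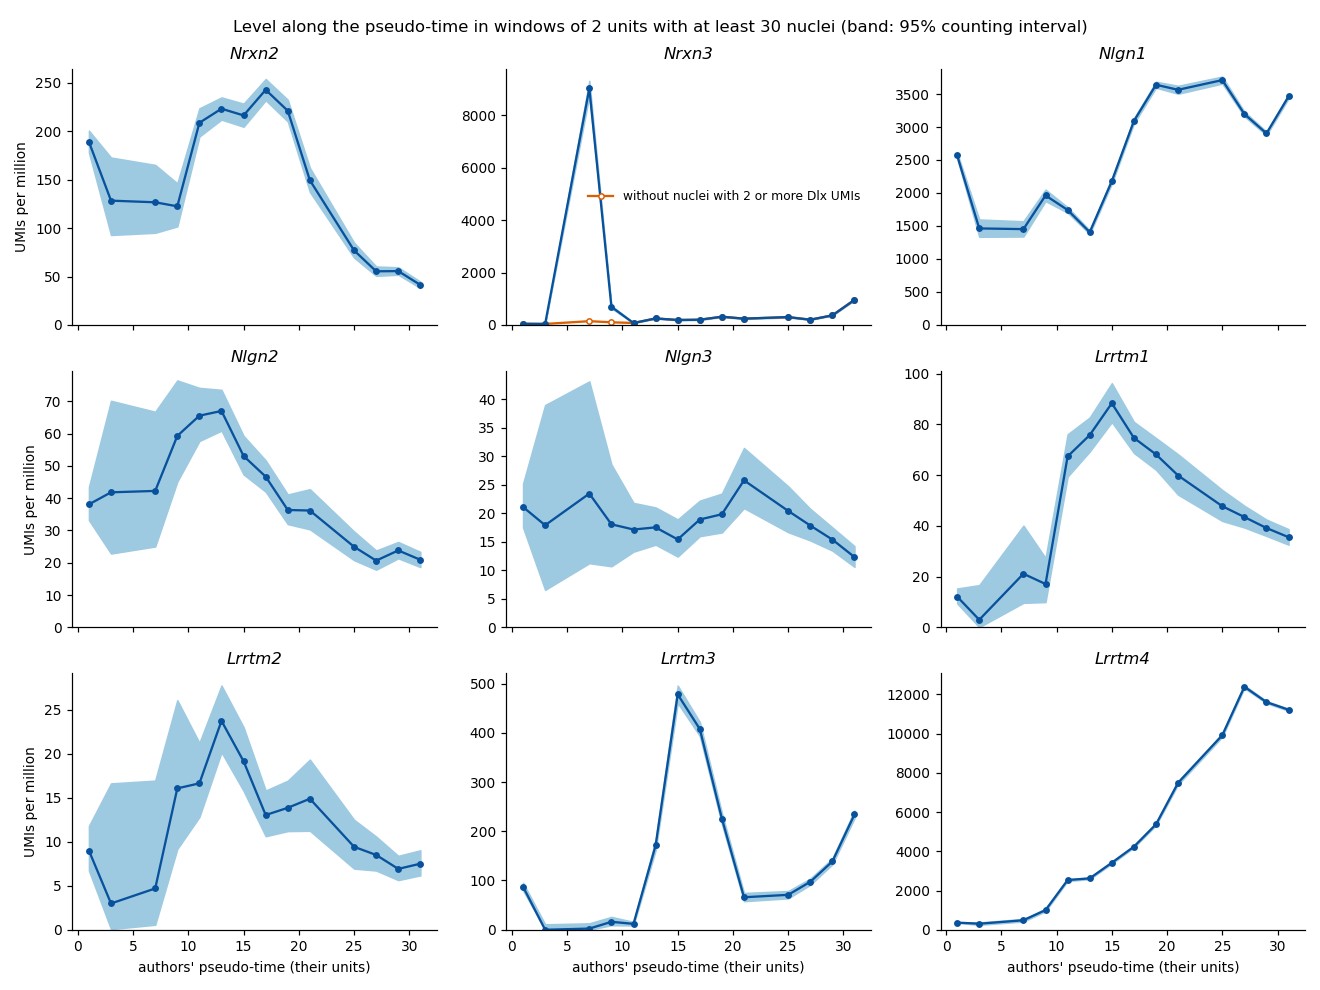
Level of the members (CPM) in windows of the study's pseudo-time with at least 30 nuclei, with 95% exact Poisson intervals (bands) that cover counting error only. Lrrtm4 rises to 12388 CPM in the window from 26 to 28, Lrrtm3 peaks at 478 CPM in the window from 14 to 16 and dips to 65.9 CPM in that from 20 to 22, and the Nrxn3 peak of 9023 CPM in the window from 6 to 8 falls to 144 CPM without nuclei that carry 2 or more Dlx UMIs (open points).

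Lrrtm3 rose and fell more than once. RGL gave 77.8, 101, 61.8 and 89.2 CPM in w1, w2, w4 and w8, and NPC only 18.0, 12.3 and 26.2 CPM in w1, w2 and w4, from 15 UMIs in all (-2.54 ± 0.42, SE, log2, adjusted p = 1.9e-06). NB1 gave 202, 257 and 161 CPM, a rise of 3.92 ± 0.38 (SE, log2, adjusted p = 1.4e-12). NB2 was between them, at 107, 208 and 64.1 CPM, and did not differ from NB1 past the threshold (-0.59 ± 0.21, SE, log2, adjusted p = 0.16), although the fall was called after thinning (-0.82, adjusted p = 0.0062) and without w2 (-0.92, adjusted p = 0.044).

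The highest neuronal level of Lrrtm3 was in GCimm1, at 470, 387 and 369 CPM in w1, w2 and w4, a rise over NB1 of 1.08 ± 0.19 (SE, log2, adjusted p = 1.2e-05). It fell to 112, 160 and 233 CPM in GCimm2 of w2, w4 and w8 (-1.38 ± 0.20, SE, log2, adjusted p = 7.5e-07). GCyoung gave 87.8 and 96.9 CPM, a fall from GCimm2 that was called only without w2 (-0.74, adjusted p = 0.020). GCmat1 was above GCyoung in w4 (108 CPM) and w8 (206 CPM), by a difference that missed the threshold (0.69, log2, adjusted p = 0.058) and was called in 6 of the alternatives (adjusted p from 0.018 to 0.048). The same shape appeared in pseudo-time, with 478 CPM in the window from 14 to 16, 65.9 CPM in that from 20 to 22 and 234 CPM in that from 30 to 32.

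Lrrtm1 and Lrrtm2 rose from NPC to NB1, and no later step between neighboring clusters was called for either, although pooled levels were lower in GCyoung and GCmat1 (44.6 and 37.7 CPM against 77.5 in NB1 for Lrrtm1, 7.91 and 7.57 against 22.1 for Lrrtm2). Lrrtm1 gave 16.0, 21.6 and 13.1 CPM in NPC of w1, w2 and w4 and 82.2, 69.0 and 89.6 CPM in NB1, without overlap (2.39 ± 0.34, SE, log2, adjusted p = 6.0e-08). It stood at 116, 74.8 and 62.2 CPM in GCimm1 and at 44.7 and 43.9 CPM in GCyoung. Lrrtm2 had the fewest UMIs of the members, with 8 in NPC. It gave 6.01, 12.3 and 13.1 CPM in NPC and 24.0, 19.8 and 15.7 CPM in NB1, higher in all 3 libraries (1.52 ± 0.51, SE, log2, adjusted p = 0.017), a call that was lost without w1 and with DESeq2 (adjusted p = 0.064), and after thinning Lrrtm2 had too few UMIs to be tested. From NPC to NB1 the edgeR test thus called all 4 LRRTM genes and, of the neuroligins, Nlgn2, and whether the families differ was not tested.

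Each of 3 LRRTM genes lies inside an alpha-catenin gene, on the opposite strand: Lrrtm1 in Ctnna2, Lrrtm2 in Ctnna1 and Lrrtm3 in Ctnna3. Alpha-catenins tie cadherin contacts to actin. The level of Ctnna3 ran beside that of Lrrtm3 in neurons: 249 against 221 CPM in NB1, 386 against 389 in GCimm1, 131 against 129 in GCimm2, 75.7 against 88.4 in GCyoung and 183 against 194 in GCmat1. Per kb of gene Ctnna3 was lower, at 0.158 against 1.36 CPM per kb in NB1. In RGL the 2 parted, with 422 CPM of Ctnna3 against 82.8 of Lrrtm3, and in Oligo, with 933 against 164 CPM. In OPC they were again near each other, at 698 and 855 CPM.

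Ctnna3 was called in the same direction as Lrrtm3 from RGL to NPC (-4.41, log2), from NPC to NB1 (3.55), from NB1 to GCimm1 (0.89) and from GCimm1 to GCimm2 (-1.27). The default counting that the study describes keeps the strands apart, although no strand setting is named, and a part of Ctnna3 reads in the Lrrtm3 levels was not tested. Ctnna2, a far longer gene than Lrrtm1, gave 5141 against 77.5 CPM in NB1, which is 4.68 against 5.13 CPM per kb, and it too rose from NPC to NB1 (1.88, log2). Ctnna1 stood at 217 against 8.76 CPM of Lrrtm2 in NPC and at 136 against 22.1 CPM in NB1, and fell from NB1 to GCimm1 (-1.88, log2), where the change of Lrrtm2 was not called. From GCimm2 on both were rare, with 10.6 CPM of Ctnna1 against 7.57 of Lrrtm2 in GCmat1.

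**Figure D5:**
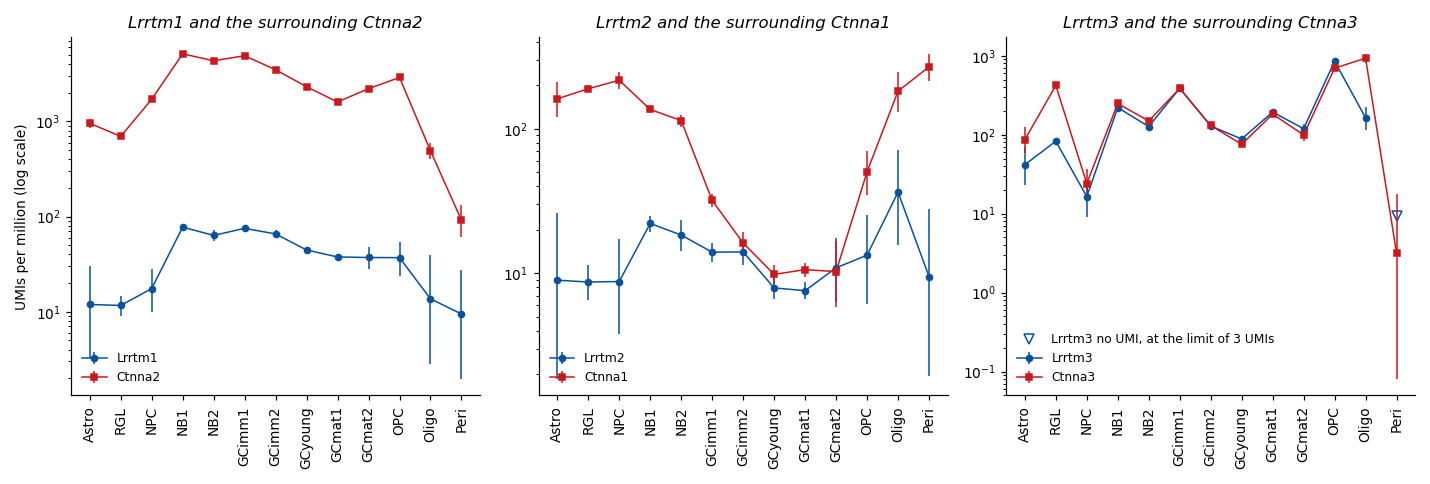
Levels (CPM, log axis) of Lrrtm1, Lrrtm2 and Lrrtm3 and of the alpha-catenin gene that surrounds each on the other strand, in the 13 clusters, with 95% exact Poisson intervals; the open triangle is the limit of 3 UMIs where Lrrtm3 had none. Lrrtm3 and Ctnna3 run together from NB1 to GCmat2 and part in RGL and Oligo.

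OPCs were called higher than mature granule cells (GCmat1) in 5 of the 9 members, against 1818 of all 11548 genes tested. The calls of Nlgn1 and Nlgn2 depended on the setting. Nrxn2 gave 698, 628, 513 and 563 CPM in the OPC nuclei of w1, w2, w4 and w8, which was 3.06 ± 0.19 (SE, log2, adjusted p = 1.7e-20) above GCmat1. Nrxn3 stood at 3328, 3459, 3632 and 3158 CPM, and Lrrtm3 at 951, 744, 883 and 886 CPM. Both exceeded GCmat1, Nrxn3 by 1.77 (adjusted p = 7.7e-09) and Lrrtm3 by 2.18 ± 0.21 (adjusted p = 4.2e-13), on the log2 scale. Every OPC nucleus had a UMI of Nrxn3, Nlgn1 and Lrrtm4, and 92.4% had one of Lrrtm3. After thinning to 2000 UMIs the shares were 99.2% for Nrxn3, 98.5% for Lrrtm4 and 76.3% for Lrrtm3, and Nlgn1 stayed in every nucleus.

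Nlgn1 in OPC gave 5499, 4909, 6105 and 6556 CPM, 0.75 ± 0.24 above GCmat1 (SE, log2, adjusted p = 0.011). That call was lost with sums of at least 20 nuclei (0.42, adjusted p = 0.064) and without the library term (0.66, adjusted p = 0.056). Nlgn2, at 92.0, 73.0, 43.8 and 55.7 CPM, was 0.78 ± 0.28 above GCmat1 (SE, log2, adjusted p = 0.021). That call was lost when any 1 library was left out and after thinning to 2000 UMIs (1.05, adjusted p = 0.058). Lrrtm4, at 3405, 3843, 4038 and 4445 CPM, was the only member called lower in OPC than in GCmat1 (-1.62 ± 0.24, SE, log2, adjusted p = 1.2e-07), and its 4 values lay between the lowest of NB2 and the highest of GCimm1. The 4 activity markers summed to 1240 CPM in OPC and 1496 CPM in GCmat2, the clusters where Nrxn3 was highest, against 238 CPM in GCmat1, and their part in that pattern was not tested. All 4 were called higher in GCmat2 than in GCmat1. In OPC the list was split, with Sorcs3 (723 CPM) and Kcnip3 (502 CPM) called higher than in GCmat1 and Bdnf (5.92 CPM) and Acvr1c (8.89 CPM) called lower.

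Astrocytes, 67 nuclei in all, were compared with GCmat1. Nlgn1 gave 3371, 2038 and 2525 CPM in w1, w2 and w4, which overlapped with GCmat1 (2677, 2913 and 3419 CPM in w1, w4 and w8). The difference was -0.40 (log2, adjusted p = 0.26), and Nlgn1 was called lower in Astro with sums of at least 20 nuclei (-0.76, adjusted p = 0.0017) and without w1 (-0.89, adjusted p = 0.0025). Nrxn2 gave 276, 409 and 293 CPM, 2.06 ± 0.24 above GCmat1 (SE, log2, adjusted p = 2.3e-10). Lrrtm4 gave only 69.0, 17.8 and 130 CPM, 23 UMIs in all, and differed from GCmat1 by -7.50 ± 0.40 (SE, log2, adjusted p = 5.5e-23). Lrrtm3 was also lower than in GCmat1 (-2.18 ± 0.44, adjusted p = 5.0e-05), as was Nrxn3 (-3.06, adjusted p = 7.1e-11). Lrrtm1 was called lower (-2.17 ± 0.62, adjusted p = 0.0039) from 4 UMIs in Astro, and it was higher in 1 of the 2 libraries with at least 10 nuclei in both clusters. The Lrrtm1 call was lost without w2, without w4 and after thinning to 2000 UMIs (-1.67, adjusted p = 0.11).

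Stem cells and astrocytes share an origin, and they differed in 3 members. Lrrtm4 was higher in RGL than in Astro by 2.41 ± 0.45 (SE, log2, adjusted p = 6.8e-05), Nrxn2 was lower (-0.79 ± 0.22, adjusted p = 0.010) and so was Nrxn3 (-1.76 ± 0.36, adjusted p = 2.7e-04). The Nrxn2 call was lost without w2 or without w4. After thinning to 2000 UMIs neither Nrxn2 (-0.70, adjusted p = 0.078) nor Nrxn3 (-1.14, adjusted p = 0.19) was called. Nlgn2 had no UMI left in the thinned Astro nuclei, so its call there has no usable fold. Astro and OPC differed in 6 members, all higher in OPC: Lrrtm4 by 5.88 ± 0.39 (adjusted p = 1.8e-18), Nrxn3 by 4.83 ± 0.33 (adjusted p = 7.3e-18), Lrrtm3 by 4.37 ± 0.37 (adjusted p = 1.7e-14), Nlgn2 by 1.47 ± 0.47 (adjusted p = 0.017), Nlgn1 by 1.14 ± 0.25 (adjusted p = 2.9e-04) and Nrxn2 by 1.01 ± 0.21 (adjusted p = 1.5e-04), with SE on the log2 scale. Of the 11548 genes tested, 1272 were higher in OPC than in Astro. The Nlgn2 call, from 9 UMIs in Astro, was lost without w1 (1.10, adjusted p = 0.24) and without w4 (1.41, adjusted p = 0.078).

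Oligodendrocytes (45 nuclei) and the Peri cluster (60 nuclei) were not tested. Oligo held the highest pooled levels of Lrrtm2, 36.4 CPM from 8 UMIs, and of Nlgn3, and its Lrrtm3 level was 225, 105 and 135 CPM in w2, w4 and w8. Lrrtm4 was at 81.9 CPM and Nrxn3 at 18.2 CPM there. Peri held the lowest pooled level of 7 members and no UMI of Lrrtm3, which allows a level of up to 9.48 CPM. Its 19 UMIs of Nlgn2 gave 60.0 CPM, near NB1 and OPC.

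The molecules that work with these families were taken from 4 lists: 16 neurexin ligands and modulators (11 tested on the neuronal path), 8 scaffold genes, 13 genes of the receptor phosphatase organizers and their partners (12 tested), a parallel set of synaptic adhesion proteins, and the 3 Khdrbs genes, whose proteins regulate neurexin splicing. From RGL to NPC, where 29.5% of all genes tested changed, 2 ligands or modulators rose and 1 fell, 2 scaffold genes rose and 3 fell, 3 phosphatase-group genes rose and 2 fell, and 2 Khdrbs genes rose. Mdga1, which binds neuroligins and blocks their contact with neurexins, went from 4.43 CPM in RGL to 356 CPM in NPC (6.02 ± 0.29, SE, log2, adjusted p = 5.0e-23). Slitrk1, a ligand of receptor phosphatases, was called from 3 UMIs in RGL and 6 in NPC, a ratio of 13.4 with a counting interval of 2.85 to 82.5.

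From NPC to NB1 (29.3% of all genes) 6 phosphatase-group genes and 4 scaffold genes rose and none of either fell, while 2 ligands or modulators rose and 2 fell and 1 Khdrbs gene rose and 1 fell. Ntrk3, a neurotrophin receptor that also binds a receptor phosphatase, rose from 27.4 to 641 CPM (4.82 ± 0.34, SE, log2, adjusted p = 4.1e-17). Slitrk3, an organizer of inhibitory synapses, rose from 2 UMIs in NPC to 282 in NB1, a ratio of 11.8 with a counting interval of 3.24 to 98.1. From NB1 to NB2 (2.94% of all genes) 1 phosphatase-group gene rose, Ptprf (41.6 to 103 CPM; 1.18 ± 0.18, SE, log2), and 1 modulator fell, Mdga1 (185 to 97.8 CPM, adjusted p = 7.1e-04).

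From NB1 to GCimm1 (12.5% of all genes) 4 phosphatase-group genes rose and 1 fell, 1 ligand or modulator rose and 1 fell, no Khdrbs gene was called, and Il1rap, a postsynaptic ligand of a receptor phosphatase, rose from 8.35 to 42.8 CPM (1.94 ± 0.31, SE, log2). The 1 scaffold gene that rose was Dlg2, which encodes PSD-93 and went from 444 to 1887 CPM (1.87 ± 0.26, SE, log2). From GCimm1 to GCimm2 (9.43% of all genes) 4 ligands or modulators rose and 1 fell, 4 phosphatase-group genes and 1 scaffold gene rose, and 1 Khdrbs gene fell. Nxph2, a neurexophilin that binds neurexins, went from 1.59 to 13.6 CPM, and Il1rap rose again to 255 CPM.

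From GCimm2 to GCyoung (18.9% of all genes) 2 ligands or modulators rose and 2 fell, 2 phosphatase-group genes rose and 1 fell, 2 scaffold genes rose and 1 Khdrbs gene fell. Gpc4, a glypican gene whose product is a known partner of Lrrtm4, rose from 8.82 to 109 CPM (3.84 ± 0.28, SE, log2, adjusted p = 5.7e-16), in the same step as the call of Lrrtm4. Nxph1, another neurexophilin, fell from 11.1 to 0.635 CPM. From GCyoung to GCmat1 (3.85% of all genes) a single gene of the 4 lists was called, Igsf21, a neurexin ligand of inhibitory synapses, which fell from 56 UMIs to 12. From GCmat1 to GCmat2 (7.30% of all genes) 1 ligand or modulator rose and 1 fell, 2 phosphatase-group genes rose and 1 fell, 1 scaffold gene rose and 1 Khdrbs gene fell. Mdga1 fell from 35.7 CPM to 3 UMIs, a ratio of 18.5 with a counting interval of 6.33 to 90.1, and Igsf21 rose to 4.49 CPM from 7 UMIs.

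Between Astro and RGL (9.58% of all genes) 1 ligand or modulator was lower in RGL, 1 scaffold gene and 1 Khdrbs gene were higher, and 1 phosphatase-group gene was higher and 1 lower. Mdga2, a relative of Mdga1, stood at 3508 CPM in Astro and 597 CPM in RGL (-2.51 ± 0.22, SE, log2), while Dlg2 was higher in RGL (457 against 104 CPM). Compared with GCmat1 (35.2% of all genes), Astro were lower in 7 of 11 phosphatase-group genes and 6 of 8 scaffold genes and higher in none of either, with 2 ligands or modulators higher and 3 lower and 1 Khdrbs gene lower. Slitrk3 had no UMI in Astro and was at least 3.13-fold higher in GCmat1, and Khdrbs2 had 1 UMI in Astro, a ratio of 98.6 with a counting interval of 17.7 to 3895. Compared with GCmat1 (34.9% of all genes), OPCs were higher in 3 ligands or modulators, 1 scaffold gene, 1 phosphatase-group gene and 2 Khdrbs genes, and lower in 4, 4, 3 and 0 of these lists. Nxph1 in OPC was at 3667 CPM against 1.27 in GCmat1 (10.98 ± 0.42, SE, log2, adjusted p = 2.3e-29) and 14.9 in Astro. Igsf21 was also higher in OPC than in GCmat1 (136 against 0.411 CPM), and Slitrk3 was at least 3.48-fold higher in OPC than in Astro. Against Astro (20.6% of all genes), OPCs were higher in 7 phosphatase-group genes, 4 scaffold genes, 2 ligands or modulators and 2 Khdrbs genes, and lower in 1 scaffold gene.

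Across the 29 sums of the neuronal path and Astro, the genes most like each member in log2(CPM + 1) differed between members. The sums share libraries and depth, so these correlations are descriptions. Lrrtm4 ran closest to Dpp6, Tmem108 and Osbp2 (each Pearson r = 0.97), and Nrxn2 to Psd2 (r = 0.94). Lrrtm1 was most like Msra (r = 0.95) and Nlgn1 most like Prr16 (r = 0.90). The best match of Nrxn3, R3hdm1, reached only 0.78. With Spearman correlation at most 2 of the 3 closest genes were shared with these, none for 4 of the 9 members (Nrxn2, Nrxn3, Nlgn3 and Lrrtm2), and the first became Dgkh for Lrrtm4 and Luzp2 for Nrxn2. Among the members themselves, Lrrtm1 and Lrrtm4 gave 0.79 over these sums, whereas Nrxn2 went against both Nrxn3 (-0.57) and Lrrtm4 (-0.56). The NPC and NB1 sums include the nuclei with at least 2 Dlx UMIs, which held most Nrxn3 UMIs there. Correlations of Nrxn3 without those nuclei were not computed.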

How the data were processed

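Single-nucleus RNA libraries of 4 cohorts were analysed, 1 per week after labeling, grouped by the cohort label. Per the study's methods, the authors aligned reads with STARsolo (2.7.4a in the submitters' processing notes) to mm10, excluded multi-mapped reads and deposited raw UMI counts that include introns; no strand setting is named, and the default parameters that the methods give for UMI counting are stranded in STARsolo. They removed doublets and a group of w4 nuclei, and deposited cluster names, pseudo-time and log2 expression of 13353 genes, scaled by size factors with a pseudocount of 1. That table lacks Nlgn1 and Lrrtm4, so the raw counts were used throughout.

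Counts were summed per library and cluster, keeping the 38 of 44 sums with at least 10 nuclei. A fit of 29 sums, those of the neuronal path and of Astro, tested 13513 genes along the neuronal path and from Astro to RGL. A fit of all 38 sums tested 11548 genes for GCmat1 to Astro, GCmat1 to OPC and Astro to OPC. Both used edgeR 4.0.16 quasi-likelihood with filterByExpr, TMM and terms for cluster and library (R 4.3.3). The threshold was a 1.5-fold change together with a p of 0.05 after Benjamini-Hochberg adjustment over all genes tested. SE is the log2 change over the square root of its F. Sums of 1 library are not separate animals, so p-values measure the spread between cluster and library sums. The script was tested on simulated counts with 200 genes changed 2-fold or 4-fold, drawn at a common dispersion and without library effects. It recovered 170 of them from NB1 to GCimm1, the most of any comparison. It recovered only 75 from Astro to RGL, 77 from GCmat1 to Astro and 74 from Astro to OPC. From GCmat1 to OPC it recovered 111, from NPC to NB1 115, from GCmat1 to GCmat2 116 and from RGL to NPC 117. An uncalled member in any comparison may thus be a missed change, most of all in these. CPM intervals are exact Poisson and cover counting error only; the limit for a count of 0 is 3 UMIs. Thinning to 2000 UMIs left out 141 shallower nuclei. The 2 partner genes named per comparison are those with the largest called log2 change, and the 3 genes most like a member those with the highest Pearson correlation. Members and lists were chosen with earlier results of these data known. Alternatives are in the closing section. Total counts per library were 13227971 to 28595331. The gene that drives the Cre is not reported here.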

Additional observations from a re-analysis of the deposited data

Results flagged for a closer look

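The 4 libraries of RGL and of OPC were checked for a value far from the others, for each of the 9 members. Of these 18 groups, 0 had a highest or lowest library whose gap to its neighbor passed Dixon's 95% limit.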

How the results depend on the processing

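The counts of called members were recomputed with other size factors, no filter on low counts, sums of at least 20 nuclei, DESeq2, a fold of 2, thinned counts, no library term and each library left out. With all nuclei, no called direction was reversed under any of these. In the alternative added after the data were seen, without nuclei that carry at least 2 Dlx UMIs, Nrxn3 went from NB1 to GCimm1 by 1.35, against -0.30 with them. The library term served as the replicate block where a library held both clusters with at least 10 nuclei. From GCimm1 to GCimm2, for example, only 2 libraries did (w2 and w4). Sums of libraries that held only 1 of the clusters also entered the fit, unpaired. Without the library term (no replicate block) the counts in report order stayed 4, 7, 0, 3, 1, 2, 1, 1, 3, 5, 6 and 6. Nlgn3 replaced Nlgn1 from GCmat1 to OPC, however.

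From Astro to RGL and from GCmat1 to Astro thinning called Nlgn2, which then had no UMI in Astro. Thinning also lost Nrxn2 and Nrxn3 from Astro to RGL, Lrrtm1 from GCmat1 to Astro and Nlgn2 from GCmat1 to OPC. From NB1 to NB2, where none was called, thinning called 1 (Lrrtm3) and leaving out Dlx nuclei called 1 (Nrxn3). DESeq2 size factors, no filter and sums of at least 20 nuclei each gave 2 from GCimm1 to GCimm2, adding Lrrtm4, and 2 from GCyoung to GCmat1, adding Lrrtm3. From GCmat1 to GCmat2 no filter gave 3 (adding Lrrtm3 and Lrrtm4) and sums of at least 20 nuclei gave 2 (adding Lrrtm4). Mean differences of the authors' log2 values cover 7 members and are averaged over nuclei after a pseudocount of 1. They are not folds of summed counts: from NPC to NB1 Lrrtm1 gave 0.26 against 2.39 from sums, and Lrrtm3 0.53 against 3.92. Held to the same fold of 1.5, they reached it for 0 members from RGL to NPC, NPC to NB1, GCimm2 to GCyoung, GCyoung to GCmat1 and Astro to RGL. They reached it for 1 from NB1 to GCimm1, for 2 from GCmat1 to Astro and for 3 from GCmat1 to OPC and from Astro to OPC.

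Leaving out 1 library at a time gave 4 to 5 members from RGL to NPC, 5 to 8 from NPC to NB1, 0 to 1 from NB1 to NB2, 1 to 3 from NB1 to GCimm1, 1 to 2 from GCimm1 to GCimm2, 1 to 3 from GCimm2 to GCyoung, 1 to 2 from GCyoung to GCmat1 and from GCmat1 to GCmat2, 2 to 3 from Astro to RGL, 4 to 6 from GCmat1 to Astro, 5 from GCmat1 to OPC and 5 to 6 from Astro to OPC, where Nlgn2 was lost without w1 or without w4. A fold of 2 dropped Nlgn2 from NPC to NB1, Lrrtm4 from NB1 to GCimm1, Nrxn2 from Astro to RGL, and Nlgn1 and Nlgn2 from GCmat1 to OPC. Leaving out a library also changed how many of all genes were called. From GCimm2 to GCyoung it was 2553 of 13513 with all libraries and 487 of 13930 without w4. From NB1 to GCimm1 it was 1691 of 13513, and 780 of 12503 without w2. From NB1 to NB2 it was 397 of 13513, and 102 of 13519 without w1. Lost calls of members are to be read beside these. Of 854 values past no threshold in either setting, 63 changed sign. Thinning left 98 of 117 levels within 1 SD of their libraries, but moved 89 of 117 shares of nuclei with a UMI out of their 95% interval, so shares are tied to depth. Nlgn2, Nlgn3 and Lrrtm2 are limited by depth.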

Other observations

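Mature granule cells of GCmat1 without a pseudo-time, 220 nuclei, differed in several members from the 3136 with one. The study left GCmat1 nuclei with a strong signal of ventral genes out of its pseudo-time, so this split follows that selection. The number of such nuclei that it states differs from 220, and ventral genes were not tested here. Nlgn1 stood at 4797 CPM in them and at 3216 CPM in the others. Nrxn2 stood at 69.6 against 47.8 CPM, and Lrrtm4 was lower, at 9932 against 11336 CPM. Nrxn3 was level at 713 and 718 CPM, although 95.0% of the former and 59.7% of the latter had a UMI of it at median depths of 10885 and 7974 UMIs, and 65.9% and 39.5% did after thinning to 2000 UMIs. Nearly all of these nuclei (216) were of w8, so no test between libraries was made.

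In GCmat2 the split of nuclei by Nrxn3 UMIs gave a narrower gap in Sorcs3 than in GCmat1. In w4 it stood at 786 CPM in the 40 nuclei with 10 or more Nrxn3 UMIs and 699 CPM in the other 20, and in w8 at 972 against 461 CPM. The other activity markers did not all follow in GCmat2. Bdnf was lower in w4 (241 against 261 CPM) and Kcnip3 in w8 (301 against 346 CPM). Bdnf in w8 (197 against 122 CPM) and Kcnip3 in w4 (303 against 185 CPM) were higher. Acvr1c was higher in both, at 170 against 117 CPM in w4 and 135 against 122 CPM in w8. Lrrtm3 in GCmat1 stood at 249 CPM in the nuclei with 10 or more Nrxn3 UMIs against 95.2 CPM in the others in w4, and at 254 against 195 CPM in w8. These splits were drawn after the data were seen and carry no test.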
